A study of Homo sapiens with 6 samples.

Results

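The genes described here are 10 members of the transforming growth factor beta (TGF-beta) pathway, chosen by symbol from the 58219 genes of the deposited table of a comparison of 72 h with 30 h of oncogenic RAS signalling. They are the ligands TGFB1, TGFB2 and TGFB3, the latency protein gene LTBP1, the receptors TGFBR1 and TGFBR2, the signal transducer SMAD3, the feedback inhibitors SMAD7 and PMEPA1, and the target TGFBI. Each symbol was found once, and 10 of 10 members passed the filter on low values. RNA came from IMR90 cells, normal diploid fibroblasts of human lung that express ER-RAS, an oncogenic RAS (named ER-RASG12V in the study's design) joined to a part of the oestrogen receptor that responds to 4-hydroxytamoxifen (4OHT). Both groups carried ER-RAS and received 100 nM 4OHT, the uncommitted controls for 30 h and the committed cells for 72 h, with 3 libraries (replicates A, B and C) in each group. The sample titles name the shorter time as 1.5 days and the longer as 3 days. Commitment to senescence and time under RAS signalling cannot be told apart in this design, which has no untreated group among the samples used here.

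TGF-beta ligands are secreted in a latent form, held in the matrix by latent TGF-beta binding proteins such as LTBP1, and must be released before they can bind. The ligand binds the type II receptor TGFBR2, which activates the type I receptor TGFBR1, and this kinase phosphorylates SMAD2 and SMAD3, which enter the nucleus with SMAD4. SMAD7 blocks the type I receptor, and PMEPA1 keeps SMAD proteins from it, and both are themselves induced by the signal. In lung fibroblasts the pathway is known for driving collagen production and a contractile state.

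The libraries held 13221152 to 15703544 reads assigned to genes. Libraries of 30 h and 72 h lay apart on the first principal component (81.3% of the variance), and the second (6.99%) set the pair of letter C libraries off from the remaining 4. Mitochondrial genes took 3.56% to 4.06% of reads in the 30 h libraries and 4.23% to 4.83% in the 72 h ones. Of 15 fibroblast markers, 14 passed the filter, among them VIM, which encodes vimentin, and PDGFRA, a receptor of mesenchymal cells, and their summed level ranged from 180712 to 192902 normalised read counts (read counts divided by the size factor of the library) at 30 h, and from 72259 to 80395 in the later group. Of these 14, 8 fell, VIM from 96300 ± 11900 to 40009 ± 3286, and 2 rose (FAP, a fibroblast surface protease, and P4HA1, a collagen hydroxylase). The markers that fell include collagen genes that also stand in the list of targets induced by TGF-beta below. The lung fibroblast factor TBX4 was near 0 in all libraries, with means of 2.10 and 0.341. Of 8 immune markers 0 passed the filter, with sums of 9.14 to 20.0 and 12.3 to 15.7. Of 8 epithelial markers 2 passed, keratin genes, with sums of 723 to 822 and 570.2 to 681, and of 6 endothelial markers only TEK passed, with sums of 670 to 933 and 428 to 497. CDH5, SFTPC, SFTPB, SCGB1A1, CD3E and AIF1 had no reads. The part of these marker changes, and of the mitochondrial share, in the results below was not tested.

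The stretches of 250 bases before the transcription starts of the receptor pair and of the pair of feedback inhibitors are shown here, because the receptors moved in opposite directions and the inhibitors moved together (values below). They are from RefSeq on GRCh38.p14, each 5' to 3' on the strand of the gene, and end at the last base before the start. Of the starts that RefSeq lists for a gene, the one nearest to the deposited gene's 5' end was taken. There were 8 starts for TGFBR1, 2 for TGFBR2, 3 for SMAD7 and 4 for PMEPA1. Which of them these cells use was not tested. Capitals mark matches, on either strand, to the SMAD box CAGAC or the AP-1 site TGANTCA. TGFBR1 lies at chr9:99103802-99104051 (plus strand), TGFBR2 at chr3:30606351-30606600 (plus strand), SMAD7 at chr18:48950966-48951215 (minus strand) and PMEPA1 at chr20:57711473-57711722 (minus strand).
TGFBR1: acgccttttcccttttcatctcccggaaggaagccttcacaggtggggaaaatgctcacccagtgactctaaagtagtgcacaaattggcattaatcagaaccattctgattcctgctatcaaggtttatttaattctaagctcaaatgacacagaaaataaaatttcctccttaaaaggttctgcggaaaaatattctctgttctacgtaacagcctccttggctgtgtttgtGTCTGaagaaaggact
TGFBR2: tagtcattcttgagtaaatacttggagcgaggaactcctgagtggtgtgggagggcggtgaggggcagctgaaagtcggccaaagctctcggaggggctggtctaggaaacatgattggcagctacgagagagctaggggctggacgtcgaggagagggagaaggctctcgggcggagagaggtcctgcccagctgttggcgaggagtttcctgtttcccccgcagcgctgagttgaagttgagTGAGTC
SMAD7: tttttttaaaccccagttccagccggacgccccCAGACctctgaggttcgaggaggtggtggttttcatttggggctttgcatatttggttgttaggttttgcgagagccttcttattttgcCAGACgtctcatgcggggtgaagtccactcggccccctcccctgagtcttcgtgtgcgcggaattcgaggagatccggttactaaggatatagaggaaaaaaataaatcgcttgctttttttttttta
PMEPA1: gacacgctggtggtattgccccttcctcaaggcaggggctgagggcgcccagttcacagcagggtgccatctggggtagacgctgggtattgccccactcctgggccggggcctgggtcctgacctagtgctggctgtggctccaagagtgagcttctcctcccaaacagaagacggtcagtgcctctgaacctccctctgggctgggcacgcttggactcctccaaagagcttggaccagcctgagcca

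In windows of 300 bases (250 before and 50 after the start), the SMAD box was found for 6 of 10 members, beside 45.3% of 35116 RefSeq windows of the same length. SMAD7 had 2 matches, starting 217 and 128 bases before its start. TGFBR1 had 2, of which the printed match starts 16 bases before the start and the other lies past it. TGFBR2 and PMEPA1 had 0. Of the members not printed, TGFB2, TGFB3 and LTBP1 had 2 each, SMAD3 had 1, and TGFB1 and TGFBI had 0. Matches thus stood at members that rose, that fell and that did not pass. The AP-1 site was found for TGFBR2 only of the 10 members (7.71% of all windows), and the last letter of that match lies past the printed stretch. The SMAD palindrome GTCTAGAC was found for 0 of 10 members, beside 0.202% of all windows. The palindrome does not contain the letters of the SMAD box or of the AP-1 site, and these matches describe letters, not bound sites. The start taken lay 254 bases from the deposited gene's 5' end for SMAD7, 899 for TGFB2 and 1839 for SMAD3. For these genes the window does not reach that end, so the sequence there was not searched. Absence of a motif from a window therefore does not show that the gene lacks it.

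Between 30 h and 72 h the 2 receptor transcripts moved in opposite directions, TGFBR1 up and TGFBR2 down. Transcripts of the feedback inhibitors SMAD7 and PMEPA1 rose, while those of LTBP1, SMAD3 and TGFBI fell. No ligand transcript passed the test. In all, 3 of 10 members rose and 4 fell at an adjusted p under 0.05 (limma, Benjamini-Hochberg over 13315 genes), beside 23.6% of all tested genes that rose and 25.0% that fell. No test of the set was made, and the members are described one by one. All 3 libraries of 72 h lay above all 3 of 30 h for 3 members (29.3% of tested genes) and below them for 4 (29.9%). The median log2 fold change was -0.42 over the members and 0.01 over all tested genes. In these bulk samples, fewer cells of a kind and less RNA per cell cannot be told apart.

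**Figure D1:**
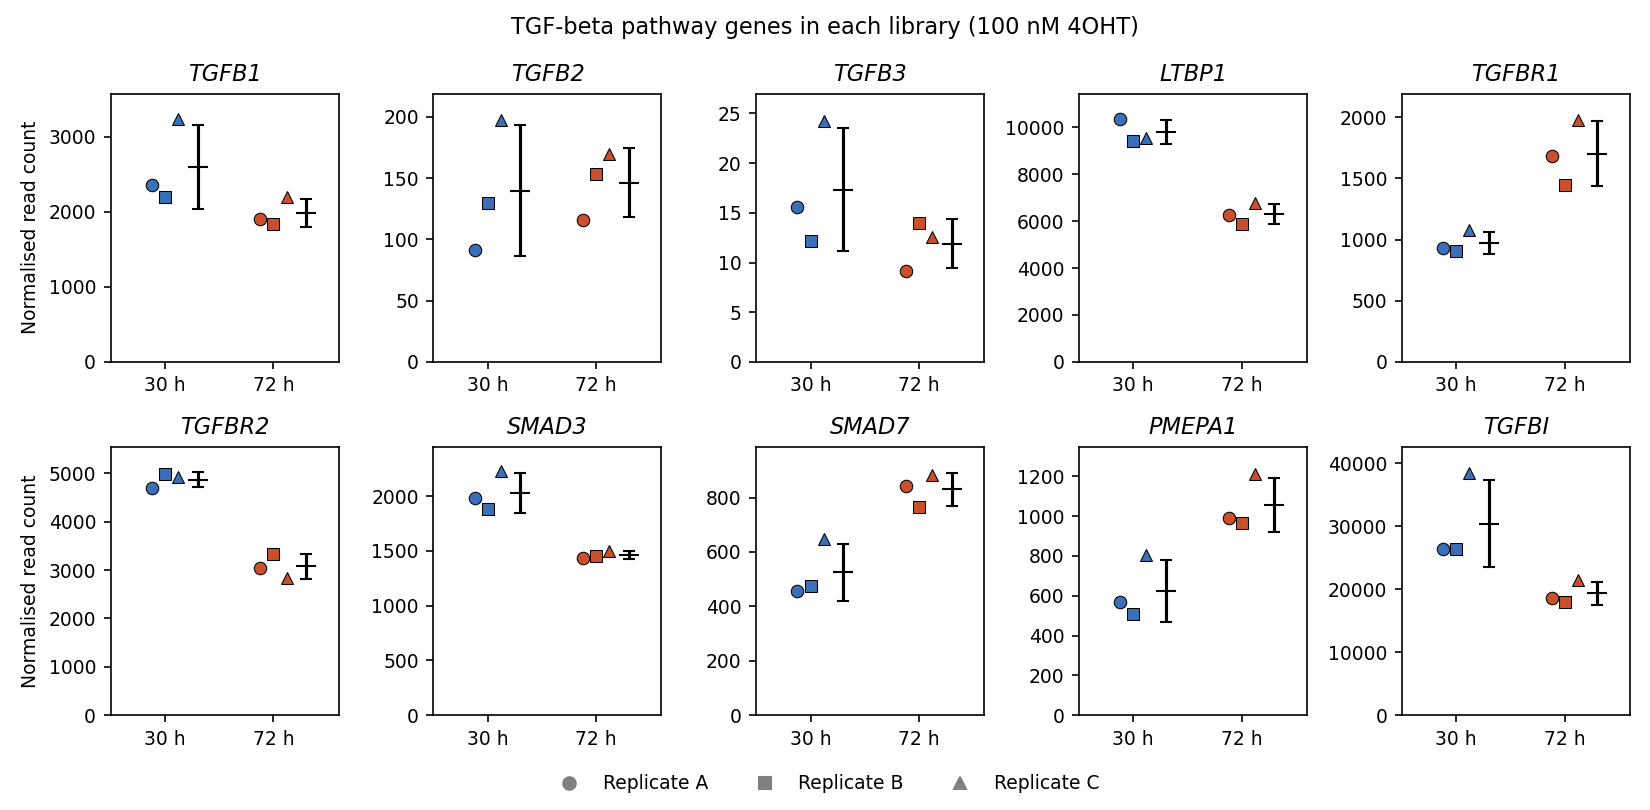
Normalised read count of each of the 10 genes (y axes start at 0, each with its own scale) in the 3 libraries of 30 h (blue) and of 72 h (red); symbols give the replicate letter, and black bars the mean with SD. The groups overlap for TGFB1, TGFB2 and TGFB3 and are apart for the other 7 genes.

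TGFB1, the main TGF-beta ligand of most tissues (ENSG00000105329.9, GRCh38 chromosome 19, 41301587 to 41353911), had 2352, 2201 and 3241 normalised read counts in replicates A, B and C at 30 h and 1909, 1844 and 2205 at 72 h. Replicate C of 30 h was the highest, and replicate C of 72 h reached just above replicate B of 30 h, so the groups overlapped. The means were 2598 ± 562 and 1986 ± 192 (SD, n = 3 each), and the log2 fold change was -0.37 with an SE of 0.155 (adjusted p = 0.0941). With edgeR on the recovered reads the adjusted p was 0.044 and with DESeq2 0.0162, and it was 0.0215 in the authors' deposited table, so the call for TGFB1 depends on the test. It also passed without 30 h replicate B (0.0452) and without both libraries of letter C (0.000284, log2 fold change -0.28). Without 30 h replicate C the log2 fold change was -0.20 (0.0597). The adjusted p was 0.109 without 30 h replicate A, and 0.101 to 0.216 without any 1 of 72 h replicates A, B and C. Exons of TGFB1 share 215 bases with HNRNPUL1 on the opposite strand, a gene at 3778 ± 28.9 and 3458 ± 78.3 normalised read counts.

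TGFB2 (ENSG00000092969.11, GRCh38 chromosome 1, 218346235 to 218444619), a ligand that needs the co-receptor betaglycan to bind TGFBR2 well, had 91.6, 130.0 and 197 normalised read counts at 30 h and 115, 153 and 169.9 at 72 h. The 72 h values lay inside the range of the 30 h values, and the 95% interval of the log2 fold change ran from -0.56 to 0.79 (adjusted p = 0.765). Its fitted direction turned without 30 h replicate A (log2 fold change -0.15). TGFB3 (ENSG00000119699.7, GRCh38 chromosome 14, 75958099 to 75982991), a ligand known for its role in palate closure, was the lowest of the members, with 15.6, 12.2 and 24.3 at 30 h and 9.20, 14.0 and 12.6 at 72 h. Its log2 fold change of -0.47 had a 95% interval of -1.19 to 0.25 (adjusted p = 0.256), so a difference in either direction was not detectable at this depth of 9 to 23 reads per library.

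Per kilobase of exon, TGFB1 made up most of the ligand transcripts in every library. Its share of the summed ligand reads per kilobase was 96.4% ± 0.719 at 30 h and 95.2% ± 0.747 at 72 h (SD, n = 3). TGFB2 held 3.21% ± 0.716 and 4.40% ± 0.671, with 2.38%, 3.57% and 3.67% in A, B and C at 30 h and 3.65%, 4.95% and 4.60% at 72 h. The shares of TGFB2 overlapped narrowly, by replicate C of 30 h and replicate A of 72 h. TGFB3 held 0.416% ± 0.0615 and 0.378% ± 0.0852. The summed level of the 3 ligands was 833 ± 184 and 644 ± 62.9 normalised reads per kilobase. These shares are given as a description, with no test.

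LTBP1, which ties latent TGF-beta to the matrix (ENSG00000049323.15, GRCh38 chromosome 2, 32946972 to 33399509), had 10364, 9419.7 and 9558 normalised read counts at 30 h and 6253, 5894 and 6772 at 72 h. The groups lay well apart and the replicates of each were close. LTBP1 fell 1.55-fold, from 9781 ± 510.2 to 6306 ± 441, and limma gave a log2 fold change of -0.63 (SE 0.0659) at adjusted p = 5e-05.

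TGFBR1, the type I receptor kinase (ENSG00000106799.12, GRCh38 chromosome 9, 99104038 to 99154192), had 930.0, 908 and 1075 normalised read counts at 30 h and 1680.0, 1448 and 1977 at 72 h. Each library of 72 h lay above each of 30 h, and the spread was wider at 72 h. TGFBR1 rose 1.74-fold, from 971 ± 90.4 to 1702 ± 265, and limma gave a log2 fold change of 0.80 (SE 0.117) at adjusted p = 0.000892. TGFBR2, the type II receptor that binds the ligand (ENSG00000163513.17, GRCh38 chromosome 3, 30606502 to 30694142), had 4694, 4992 and 4930.1 at 30 h and 3042, 3343 and 2840.4 at 72 h. All 3 libraries of 72 h were lower, and here replicate C of 72 h was the lowest. TGFBR2 fell 1.59-fold, from 4872 ± 158 to 3075 ± 253, and limma gave a log2 fold change of -0.67 (SE 0.0657) at adjusted p = 3.6e-05.

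The receptors act as a complex, so their levels were also set against each other per kilobase of exon. The ratio of TGFBR1 to TGFBR2 was 0.136, 0.125 and 0.150 in replicates A, B and C at 30 h and 0.380, 0.298 and 0.478 at 72 h. TGFBR2 remained the more abundant transcript in all 6 libraries. The mean ratio was 0.137 ± 0.0124 and 0.385 ± 0.0904 (SD, n = 3), and the groups did not overlap.

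SMAD3, the transcription factor that TGFBR1 phosphorylates (ENSG00000166949.15, GRCh38 chromosome 15, 67063763 to 67195195), had 1981, 1880.5 and 2230.4 normalised read counts at 30 h and 1435, 1454 and 1499.9 at 72 h. The 3 libraries of 72 h were almost equal and all lay below those of 30 h. SMAD3 fell 1.39-fold, from 2031 ± 180.2 to 1463 ± 33.6, and limma gave a log2 fold change of -0.47 (SE 0.0676) at adjusted p = 0.000365.

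SMAD7, the inhibitory SMAD (ENSG00000101665.8, GRCh38 chromosome 18, 48919853 to 48950711), had 456, 475 and 646 normalised read counts at 30 h and 844, 765 and 882 at 72 h. Replicate C was the highest in both groups, and the groups did not overlap. SMAD7 rose 1.59-fold, from 526 ± 105 to 830.3 ± 59.9, and limma gave a log2 fold change of 0.67 (SE 0.131) at adjusted p = 0.0036. Its ratio to SMAD3 per kilobase of exon was 0.417, 0.458 and 0.525 in A, B and C at 30 h and 1.065, 0.953 and 1.065 at 72 h. Per kilobase, SMAD7 transcripts were fewer than those of SMAD3 in each library of 30 h and about level with them at 72 h. Without the division by exon length, SMAD7 was below SMAD3 at 72 h too (means of 830 and 1463 normalised read counts).

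PMEPA1, a membrane protein that binds SMAD2 and SMAD3 (ENSG00000124225.15, GRCh38 chromosome 20, 57648392 to 57711536), had 566, 506 and 803 normalised read counts at 30 h and 990.2, 965 and 1211 at 72 h. As for SMAD7, replicate C was the highest in each group. PMEPA1 rose 1.71-fold, from 625 ± 157 to 1056 ± 135.5, and limma gave a log2 fold change of 0.78 (SE 0.186) at adjusted p = 0.0145. Without 30 h replicate A the adjusted p was 0.0487, the highest of the 6 fits that each left out 1 library. Exons of PMEPA1 share 343 bases with NKILA on the opposite strand, a gene at 17.5 ± 3.65 normalised read counts at 30 h and 13.7 ± 2.46 at 72 h, far below PMEPA1.

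TGFBI, a secreted matrix protein named for its induction by TGF-beta (ENSG00000120708.16, GRCh38 chromosome 5, 136028895 to 136063818), had 26402, 26383 and 38417 normalised read counts at 30 h and 18619.6, 18020.3 and 21423 at 72 h. Replicate C of 30 h stood above the other libraries, and all 3 of 72 h were lower than any of 30 h. TGFBI fell 1.55-fold, from 30401 ± 6943 to 19354 ± 1816, and limma gave a log2 fold change of -0.63 (SE 0.16) at adjusted p = 0.0168. Without 30 h replicate C the log2 fold change was -0.45 (adjusted p = 0.000661). Of the fits that each left out 1 library, the one without 72 h replicate A had the highest adjusted p, 0.0496, just under the threshold. With no filter on low values, where 26826 genes were fitted together, the call was lost (adjusted p = 0.108). The ratio of PMEPA1 to TGFBI, both induced by TGF-beta, was 0.0285 ± 0.00165 per kilobase at 30 h and 0.0757 ± 0.00256 at 72 h, with little spread in either group.

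**Figure D2:**
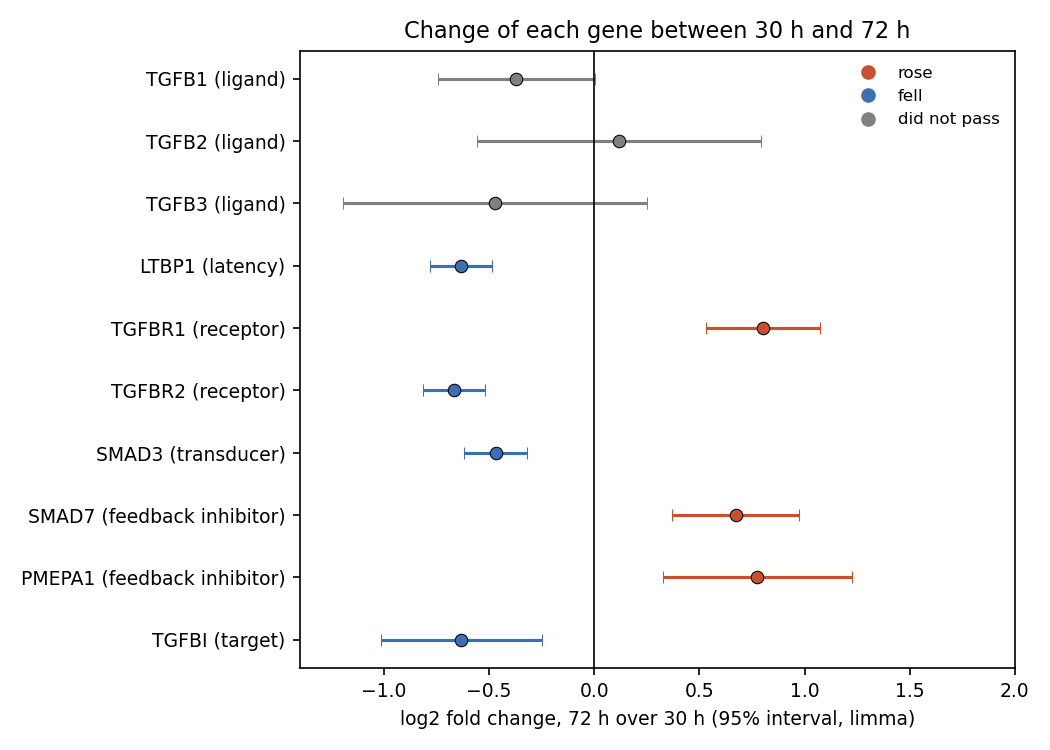
Log2 fold change of each of the 10 genes at 72 h over 30 h (x axis) with its 95% interval from limma, ordered by role; red points rose, blue fell and grey did not pass. TGFBR1, SMAD7 and PMEPA1 lie at 0.67 to 0.80 and TGFBI, SMAD3, TGFBR2 and LTBP1 at -0.67 to -0.47.

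**Figure D3:**
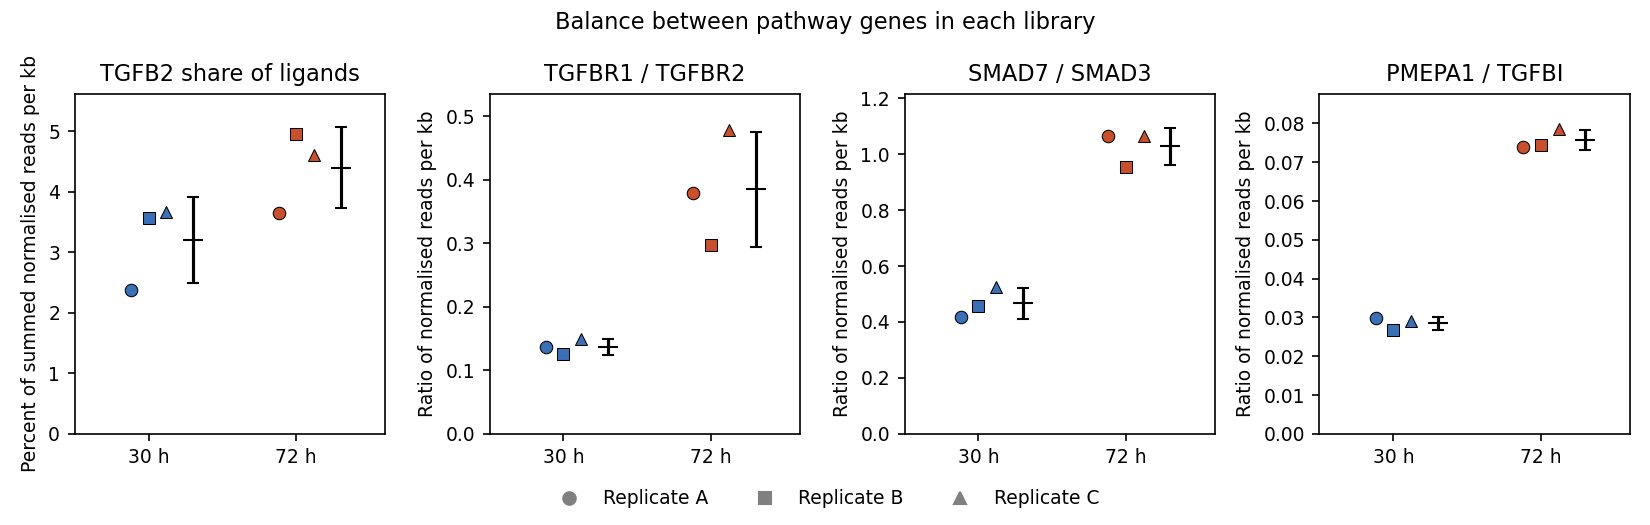
Percent of TGFB2 among the 3 ligands and the ratios of TGFBR1 to TGFBR2, SMAD7 to SMAD3 and PMEPA1 to TGFBI, from normalised reads per kilobase of exon (y axes start at 0), in each library; symbols give the replicate letter and black bars the mean with SD. The 3 ratios are higher in each library of 72 h than in any of 30 h, while the TGFB2 shares overlap.

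On the scale of normalised reads per kilobase, the order of levels at 30 h was TGFBI at 3893 ± 889, LTBP1 at 1334 ± 69.6, TGFBR2 at 1036 ± 33.5 and TGFB1 at 802 ± 174. Below them came SMAD3 at 223 ± 19.8, TGFBR1 at 142 ± 13.2, PMEPA1 at 111 ± 27.9, SMAD7 at 104.5 ± 20.8, TGFB2 at 27.1 ± 10.4 and TGFB3 at 3.53 ± 1.27. PMEPA1 and SMAD7 differed by less than their SD. At 72 h TGFBR1 (249 ± 38.7), PMEPA1 (188 ± 24.1) and SMAD7 (165 ± 11.9) had moved above SMAD3 (160.5 ± 3.68), although SMAD7 and SMAD3 differed by less than the SD of SMAD7. Without the division by exon length, SMAD3 at 72 h (1463 normalised read counts) stayed above PMEPA1 (1056) and SMAD7 (830). The order of these genes thus depends on the exon lengths used. TGFBR2 at 654 ± 53.8 and TGFB1 at 613 ± 59.4 also came within their SD of each other.

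Letter C was the highest library of its group for 8 of 10 members at 30 h and for 8 of 10 at 72 h, beside 38.0% and 36.4% of all tested genes. Without both libraries of letter C, a fit added after these libraries were seen to lie apart, 3 members rose and 5 fell, the fifth being TGFB1, while calls over all tested genes also went up, to 26.0% and 27.2%.

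The other genes of the pathway were taken from a list of 104 genes sorted by role, of which 97 passed the filter. Of these, 21 rose, 45 fell and 31 did not pass, with a median log2 fold change of -0.26, beside 23.6% of all tested genes that rose and 25.0% that fell. Without both libraries of letter C, 24 rose and 48 fell, beside 26.0% and 27.2% of all tested genes. The counts by role that follow stand beside the same 23.6% and 25.0%. Apart from the induced targets they cover 5 to 17 genes each, too few to read a departure from those shares.

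Among 15 genes of latency and activation, 5 rose, 6 fell and 4 did not pass. ITGB8, the beta subunit of an integrin that releases TGF-beta from its latent form, rose 9.13-fold from 44.7 ± 18.4 to 404 ± 100.0 normalised read counts (adjusted p = 0.000226). NRROS, which anchors latent TGF-beta on cell surfaces, rose 4.87-fold from 35.6 ± 13.9 to 169 ± 20.0. THBS1, the activator thrombospondin 1, fell 9.91-fold from 35871 ± 3769 to 3805 ± 1456. ITGB5, another integrin beta subunit that binds latent TGF-beta, fell 2.48-fold (adjusted p = 2.89e-05).

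Of 7 other receptors and co-receptors, 1 rose, 3 fell and 3 did not pass. ACVRL1, the type I receptor ALK1, rose 1.70-fold from 508 ± 112 to 852.5 ± 61.3 normalised read counts. ENG, the co-receptor endoglin, fell 1.66-fold from 3533 ± 77.0 to 2131 ± 167, and CD109, a co-receptor that inhibits the pathway, fell 1.66-fold. ACVR1, a type I receptor mainly of BMP and activin ligands, fell 1.23-fold (adjusted p = 0.0171). The call for ACVR1 was lost without 72 h replicate A (0.0642) or 72 h replicate B (0.0632).

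Of 7 SMADs and partners tested, 2 rose, 2 fell and 3 did not pass. SMAD2 and SMAD4, the partners of SMAD3, were named after their values were seen, and had log2 fold changes of 0.01 and 0.04 (adjusted p = 0.909 and 0.654). ZFYVE9, the anchor protein SARA that presents SMADs to the receptor, rose 1.83-fold from 438 ± 14.4 to 808 ± 89.6 normalised read counts. EP300, a coactivator of SMADs, rose 1.26-fold. RUNX1 and RUNX2, transcription factors that bind SMADs, fell 1.16-fold and 1.27-fold. The call for RUNX1 was lost without 72 h replicate B (adjusted p = 0.068). That for RUNX2 was lost without any 1 of 30 h replicates B and C and 72 h replicates A, B and C (0.0573 to 0.129), and its log2 fold change was -0.34 in full and -0.20 without 30 h replicate C.

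Of 17 other genes listed under inhibitors and feedback, 6 rose, 3 fell and 8 did not pass, with a median log2 fold change of 0.06. This list also holds USP4 and USP15, which are not inhibitors of the pathway. Their log2 fold changes were 0.06 and -0.14, and neither passed (adjusted p = 0.547 and 0.0849), so the counts and the median are not of inhibitors alone. TGIF1, a corepressor of SMADs, rose 2.24-fold from 475 ± 13.8 to 1069 ± 128 normalised read counts (adjusted p = 5.96e-06). NEDD4L, a ubiquitin ligase for active SMADs, rose 2.26-fold, and BAMBI, a decoy receptor, rose 1.87-fold from 78.5 ± 19.7 to 146 ± 20.6. SMURF2, a ubiquitin ligase that works with SMAD7 to remove the receptor, fell 1.89-fold from 6959 ± 749 to 3689 ± 481. Of 6 genes of the SMAD-independent branch, 2 rose and 2 fell. TAB3, an adaptor of the kinase TAK1, rose 1.59-fold, and DAB2, an endocytic adaptor of the receptors, fell 1.74-fold. MAP3K7, the gene of TAK1 itself, rose 1.13-fold (adjusted p = 0.0243), which did not pass when 30 h replicate A or B or 72 h replicate B or C was left out (0.0568 to 0.0806). TRAF6, a ubiquitin ligase upstream of TAK1, fell 1.29-fold (adjusted p = 0.0274), and this call was lost without any 1 library other than 72 h replicate A (0.0549 to 0.093).

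Genes listed here as induced by TGF-beta in fibroblasts mostly fell. The list was chosen with earlier results of these data known. Feedback genes stand in other lists, so the counts depend on which genes were listed. Lower at 72 h were 28 of the 40 tested and higher were 5, while 7 did not pass, beside 25.0% and 23.6% of all tested genes. The median log2 fold change of the list was -1.03. NEDD9, a focal adhesion scaffold, fell 22.0-fold from 169 ± 17.7 to 6.97 ± 2.44 normalised read counts. TAGLN, the actin-binding protein transgelin, fell 17.1-fold from 10110.5 ± 1710.0 to 624 ± 263, and CNN1, the contractile protein calponin 1, fell 7.90-fold. ELN, which encodes elastin, fell 14.7-fold (log2 fold change -3.87, and -3.24 without 30 h replicate C). ELN had 49, 51 and 177 reads at 30 h and 4, 3 and 7 at 72 h, and NEDD9 had 9, 5 and 7 reads at 72 h. Over 17 alternatives of the processing, the log2 fold change ran from -4.37 to -3.13 for ELN. That of NEDD9 ran from -4.66 to -3.88, so the size of both falls is approximate.

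Of the induced targets outside the naming rule, CTGF, a matricellular growth factor, fell from 4677 ± 523 to 772 ± 145 normalised read counts (log2 fold change -2.61, adjusted p = 2.78e-05). The 5 that rose, also named after their values were seen, were IL11, an interleukin of fibroblasts, VEGFA, an angiogenic factor, ADAM12, a metalloprotease, CDKN1A, the cell cycle inhibitor p21, and TNC, the matrix protein tenascin C. Their log2 fold changes were 2.17, 2.02, 1.55, 0.73 and 0.24, and the call for TNC was lost without 30 h replicate B (adjusted p = 0.0853). Among the members, the induced genes SMAD7 and PMEPA1 rose and TGFBI fell.

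Of 5 genes listed as lowered by TGF-beta, 0 rose, 1 fell and 4 did not pass by limma. Whether TGF-beta lowers them in these fibroblasts was not tested. ID3, an inhibitor of helix-loop-helix factors, fell 2.34-fold from 894 ± 87.4 to 397 ± 150 normalised read counts (adjusted p = 0.0107). Leaving out 30 h replicate C raised this to 0.0549. MYC, named after its value was seen, had 582 ± 98.8 and 717 ± 46.9 (adjusted p = 0.0621).

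**Figure D4:**
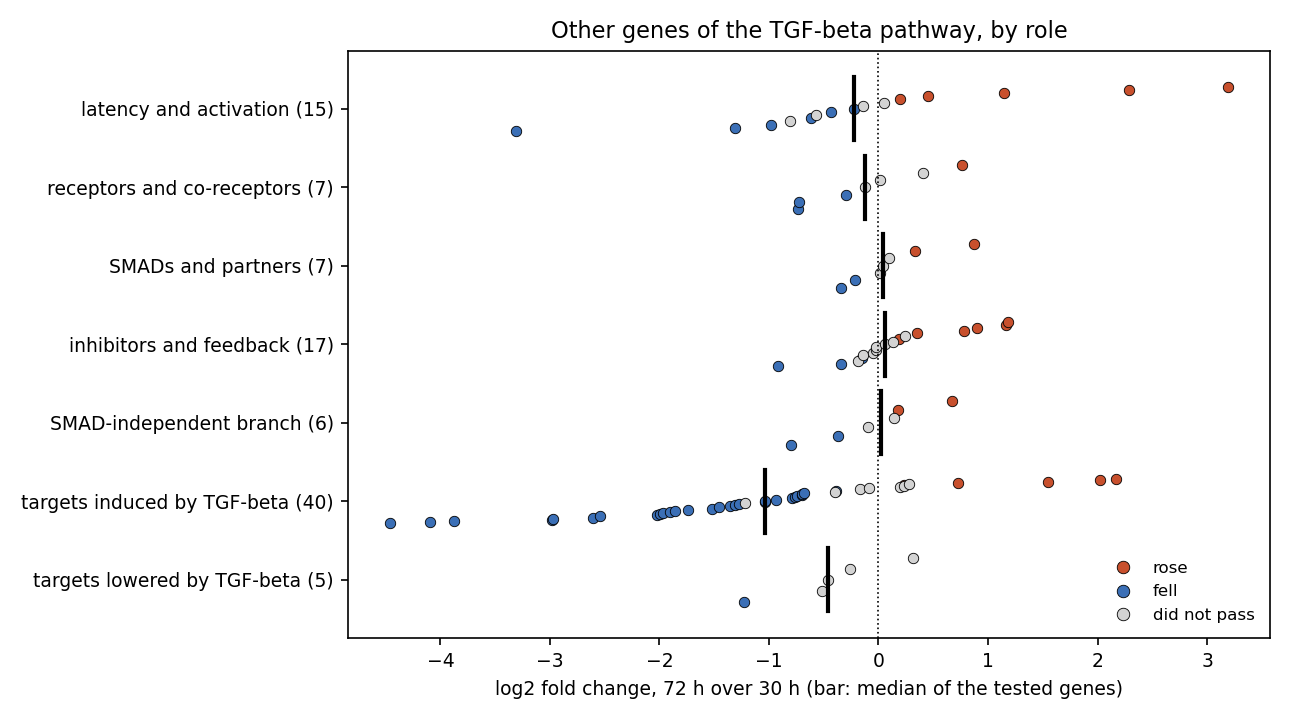
Log2 fold change at 72 h over 30 h (x axis) of the 97 tested genes of the wider pathway list, 1 point per gene, by role with the number tested; red rose, blue fell, light grey did not pass, and the black bar is the median. The median is -1.03 for targets induced by TGF-beta and 0.06 for the list of inhibitors and feedback genes, which also holds USP4 and USP15.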

How the data were processed

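RNA-seq of 6 libraries was used, 3 per group, grouped by the sample titles. No label says that replicates were separate cultures, so p-values reflect only how far these samples spread, possibly for technical reasons. Per the submitters' processing notes, reads were processed with Trimmomatic 0.35, STAR 2.5.1b (GRCh38) and DESeq2 1.18.1. Read counter, annotation and strand setting: not given in the sources used here. For each gene the authors deposited a signal in each library, which is a read count divided by the library's size factor (called normalised read count); the table has 58219 genes. In each library 100% of values were whole multiples, within 0.01, of the smallest value above 0, which gave back whole reads. Per the file headers, the deposited table also holds the authors' log2 fold changes, a score (the Wald statistic) and p-values, used only as an alternative. Columns of per-sample values without a matching sample numbered 0.

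The 13315 genes that reached 10 normalised counts in 3 or more libraries were compared as log2(value + 1) with limma 3.58.1 (trend, robust) in R 4.3.3, Benjamini-Hochberg adjustment and a threshold of 0.05. Fold changes are on that scale. On the recovered counts, edgeR 4.0.16 and DESeq2 1.42.0 were alternatives, with edgeR calling 3143 genes higher and 3340 lower and DESeq2 2645 and 2914, against 3144 and 3328 by limma. Replicate pairs differed by 3.13 to 14.9 chi-square units per degree of freedom (100.0 to 146 between groups). Replicates A and B differed by 3.13 at 30 h and 3.87 at 72 h, and pairs with replicate C by 10.6 to 14.9. Each library was counted once, but these values cannot show that the libraries came from separate cultures. The members and lists were chosen with earlier results of these data known. All members are named, and of each list up to 4 genes past the threshold ranked by size of change, with a mean of 50 or more normalised counts in the higher group. Levels per kilobase use merged exons of GENCODE 29, which held 99.8% of tested identifiers. Coordinates are those of the deposited table. Exons of CD109, CDKN1A, CTGF, ELN, ENG, EP300, FAP, ITGB8, LTBP1, NEDD4L, NEDD9, P4HA1, SMAD3, SMURF2, TAB3, TAGLN, TGFB3, THBS1, TNC, VEGFA, VIM and ZFYVE9 overlap an opposite-strand gene, and those of DAB2, EP300, NRROS, PDGFRA, SMAD4 and TGFB2 a same-strand one, which leaves some of their reads uncertain.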

Additional observations from a re-analysis of the deposited data

How the results depend on the processing

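Each of the 10 genes was compared under 17 alternatives. The 3 members that rose did so in all 17, and the number that fell was 3 to 5. Over all genes fitted, 12.6% to 26.3% rose and 12.9% to 27.2% fell across the 17, both lowest with no filter on low values. Of 170 member values, 163 kept their side of the threshold, 1 lost a call (TGFBI with no filter, given above) and 6 gained one, all for TGFB1, among them the authors' deposited table (adjusted p = 0.0215). Of 527 values for 31 other named genes, 491 kept their side and 36 lost a call. No call reversed. The other pathway genes gave 17 to 24 rising and 38 to 49 falling, beside the same ranges over all genes fitted. The replicate letters were not treated as pairs, since the correlation of deviations came to 0.00696 (A), 0.172 (B) and 0.185 (C), not all above 0.1. With the letter as a replicate block, 3 members rose and 5 fell (24.6% and 25.9% of all tested genes), TGFB1 having adjusted p = 0.00146. Without the division by exon length, the shares of TGFB1, TGFB2 and TGFB3 were 94.4%, 4.99% and 0.618% at 30 h and 92.6%, 6.81% and 0.558% at 72 h. Quantile normalisation moved the median log2 fold change of all genes to 0.03 from 0.01. Among the 10 members, counting precision limits TGFB3 most, with 9 to 23 reads per library.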
